A study of Mus musculus with 30 samples.

Results

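The integrated stress response was followed through 9 of its genes, Atf4, Atf5, Ddit3, Trib3, Chac1, Asns, Sesn2, Ppp1r15a and Gdf15, in mouse liver after iron ion irradiation. The genes were taken as a list of symbols chosen with earlier results of these data known, and no measured value was used to find them. Each was found once among the 51826 genes of the count table. All 9 passed the filter on low counts and were among the 19685 genes tested. The mice were males of the strain written C57BL16 in the labels, and their ages were not given in the labels used here. One arm was exposed to 56Fe ions (600 MeV/n, dose 0.2 Gy) and the other was not irradiated. Left liver lobes were taken 30, 60, 120, 270 and 360 days later, called months 1, 2, 4, 9 and 12 here, from 3 biological replicates in each of the 10 groups. RNA came from thin frozen slices of whole lobe, was depleted of ribosomal RNA and was sequenced. A change in whole-lobe RNA cannot be divided into fewer cells of a type and less RNA per cell. The p-values measure the spread between these samples.

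The integrated stress response is a translation control pathway. Kinases that sense unfolded protein in the endoplasmic reticulum, amino acid shortage, haem shortage or double-stranded RNA phosphorylate the initiation factor eIF2, which lowers general protein synthesis and raises translation of a few messages with upstream open reading frames, Atf4 and Atf5 among them. The ATF4 protein then activates genes for amino acid supply and redox balance, and also Ddit3 and Trib3. In liver the pathway responds to fasting, amino acid imbalance, mitochondrial faults and secretory load. Much of the control of ATF4 and ATF5 is translational, so the RNA levels below do not measure the activity of either protein.

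The libraries held 7995248 to 20215995 counts assigned to genes. Gm26917, annotated as a long noncoding RNA, took 3.04 to 7.57% of the counts at months 1 and 2 and 0.452 to 2.04% later. The source of its reads was not tested. A change between those 2 sets of months therefore cannot be told apart from a difference between library sets. The hepatocyte markers summed to between 23762 and 92463 CPM (the count relative to library size, scaled by the trimmed mean of M-values), and none of the 8 marker lists for liver and blood cells had a member at 0 in a whole group.

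Per kilobase of exon, Atf5 and Atf4 were the most abundant of the 9 messages and the other 7 lay far below them. The median over 30 libraries was 43.7 CPM per kb for Atf5 and 27.1 for Atf4, and Atf5 was the higher in 26 of 30 libraries. Atf4 exceeded Ddit3 (median 4.93) in 30 of 30. Below that the order was Gdf15 at 4.06, Trib3 at 3.81, Asns at 3.69, Sesn2 at 2.89, Chac1 at 2.50 and Ppp1r15a at 2.28 CPM per kb. From Ddit3 downward each gene exceeded its next neighbour in only 17 to 19 of 30 libraries, so these neighbours did not differ beyond their spread. The genes varied to very different extents between livers. The highest library exceeded the lowest by 42.9 times for Asns and by 41.0 times for Gdf15, against 10.7 times for Trib3, 10.03 for Chac1, 5.79 for Atf5, 3.49 for Atf4, 2.99 for Ddit3, 2.83 for Sesn2 and 2.34 for Ppp1r15a.

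**Figure D1:**
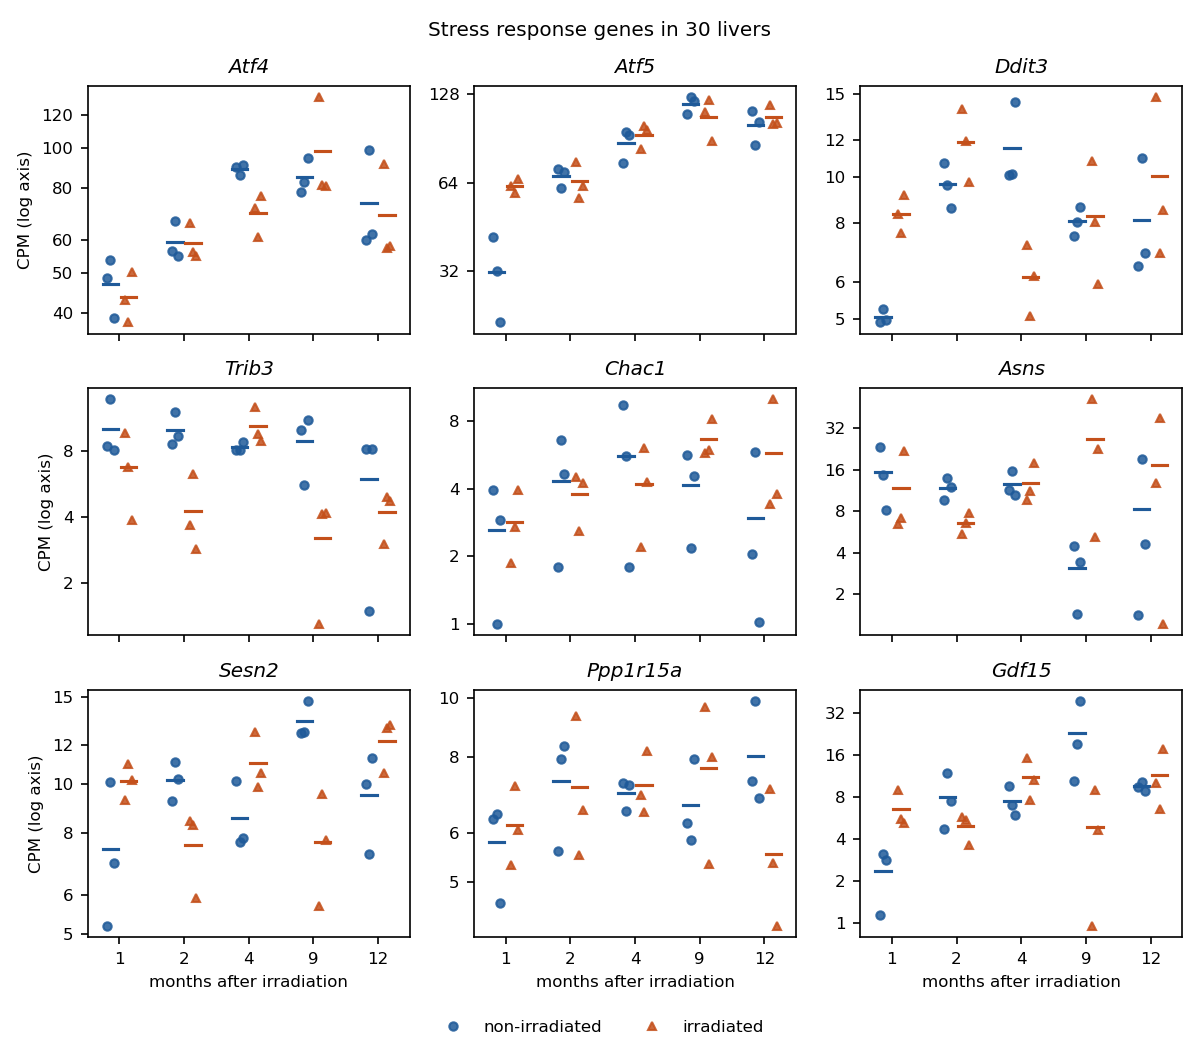
Level of the 9 genes in every liver, as CPM on log axes with a scale for each gene, by months after irradiation. Blue circles are non-irradiated and orange triangles irradiated livers, 3 per group, and short bars are group means. The 3 non-irradiated livers of month 1 hold the lowest Atf5 levels of the series, at 41.8 CPM or less, and 1 irradiated liver of month 9 stands highest in Atf4 and Asns and lowest in Trib3 and Gdf15.

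The upstream sequences of the 4 genes whose level differed between the arms at some month are shown because ATF4 and its partners act through sites near such starts. They are RefSeq sequences on GRCm38.p6, read 5′ to 3′ on the strand of the gene, and run up to the first base of the annotated gene.
Atf5, chr7:44816659-44816908, minus strand: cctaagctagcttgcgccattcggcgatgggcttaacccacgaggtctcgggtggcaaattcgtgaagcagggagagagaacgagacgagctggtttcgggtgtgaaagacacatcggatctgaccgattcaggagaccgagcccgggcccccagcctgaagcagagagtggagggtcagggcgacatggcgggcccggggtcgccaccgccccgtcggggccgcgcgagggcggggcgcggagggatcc
Ddit3, chr10:127290543-127290773, plus strand: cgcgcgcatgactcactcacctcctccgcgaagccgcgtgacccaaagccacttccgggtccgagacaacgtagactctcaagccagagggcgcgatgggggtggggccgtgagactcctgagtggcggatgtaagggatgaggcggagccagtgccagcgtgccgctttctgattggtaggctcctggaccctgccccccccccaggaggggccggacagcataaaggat
Sesn2, chr4:132510502-132510706, minus strand: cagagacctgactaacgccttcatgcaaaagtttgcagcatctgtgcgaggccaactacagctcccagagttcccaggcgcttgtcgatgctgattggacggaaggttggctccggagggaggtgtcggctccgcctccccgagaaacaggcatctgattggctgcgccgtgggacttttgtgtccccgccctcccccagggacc
Gdf15, chr8:70632457-70632706, minus strand: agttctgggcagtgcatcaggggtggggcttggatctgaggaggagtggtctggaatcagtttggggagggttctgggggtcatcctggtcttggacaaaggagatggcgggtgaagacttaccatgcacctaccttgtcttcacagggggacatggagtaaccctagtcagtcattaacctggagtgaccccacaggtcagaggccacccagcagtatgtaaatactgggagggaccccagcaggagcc

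A search was made on both strands for TGATGNAA, a form of the element bound by C/EBP and ATF factors, and for TGACGTCA, the cyclic AMP response element. These motifs were chosen after the values of the genes had been seen. The first occurred in 955 of 27025 RefSeq windows of 250 bases (3.53%) and the second in 432 (1.6%). Neither string occurred in the 4 sequences above, nor in those of Atf4 and Trib3, which says only that these letters are not in these windows. The 3 matches are printed with the match in capitals. That of Chac1 reads on the minus strand and begins 193 bases upstream of the RefSeq start, that of Asns begins 23 bases upstream, and that of Ppp1r15a, to TGACGTCA, begins 12 bases upstream. The Asns window lies in the gene as Gencode annotates it. That of Ppp1r15a crosses the annotated start of the gene, and its match lies upstream of it. A match is a description and not a site shown to be bound.
Chac1, chr2:119351038-119351067, plus strand: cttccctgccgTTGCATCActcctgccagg
Asns, chr6:7693214-7693243, minus strand: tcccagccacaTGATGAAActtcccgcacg
Ppp1r15a, chr7:45526262-45526291, minus strand: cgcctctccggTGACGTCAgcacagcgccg

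Few of the 9 genes differed between the arms at any one month, and those that did were not the same from month to month. The test was edgeR's quasi-likelihood F-test across all 19685 genes, with p adjusted by the Benjamini-Hochberg method and called below 0.05. At month 1 the irradiated livers were higher in 1 of 9 genes, Atf5, against 4.6% of all genes called. Ddit3, Sesn2 and Gdf15 also had an unadjusted p under 0.05 there, all higher, as had 3317 of all 19685 genes. At month 2 none of the 9 was called, against 4.37% of all genes. There Trib3 was the only gene of the 9 with an unadjusted p under 0.05, against 4260 of all genes. An edgeR fit of the 6 month 2 libraries alone called 2 of the 9, Trib3 and Asns, and 3026 of all genes. At month 4 Ddit3 alone was called, lower, against 3.6%. No other of the 9 had an unadjusted p under 0.05 there, against 3759 of all genes. At month 9 Sesn2 and Gdf15 were called, both lower, against 1.66%. Trib3, lower, and Asns, higher, also had an unadjusted p under 0.05 there, as had 3166 of all genes. At month 12 none of the 9 was called, against 0% of all genes. Of all genes 2648 had an unadjusted p under 0.05 at that month, DESeq2 called 163, and edgeR called 39 with the replicate number as a block, the number by which libraries correlated at month 12. Of the 9, Ppp1r15a was the only one with an unadjusted p under 0.05 there. DESeq2 called none of the 9 at month 2 or month 12. Averaged over the 5 months the irradiation effect was called for none of the 9, against 5.26% of all genes. The unadjusted p of that average was under 0.05 for Atf5 and Trib3, and DESeq2 called Trib3.

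The size of the irradiation effect depended on the month for 4 of the 9 genes, against 11% of all genes. These were Sesn2 (adjusted p = 0.0112), Atf5 (adjusted p = 0.0142), Ddit3 (adjusted p = 0.02) and Gdf15 (adjusted p = 0.031). The median log2 fold change over the 9 genes, irradiated minus non-irradiated, was 0.09, -0.20, 0.04, 0.03 and 0.26 at months 1, 2, 4, 9 and 12, and over all genes tested it was -0.03, -0.02, 0.04, 0.004 and -0.02. At month 2, 8 of the 9 estimates were negative, Ddit3 being the exception, and under RLE and upper-quartile scaling 7 and 5 were. The 2 arms did not overlap for 3, 3, 3, 5 and 0 of the 9 genes in the order of the months, where the share over all genes was 18.6, 34.2, 30.2, 18.2 and 15.5%.

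**Figure D2:**
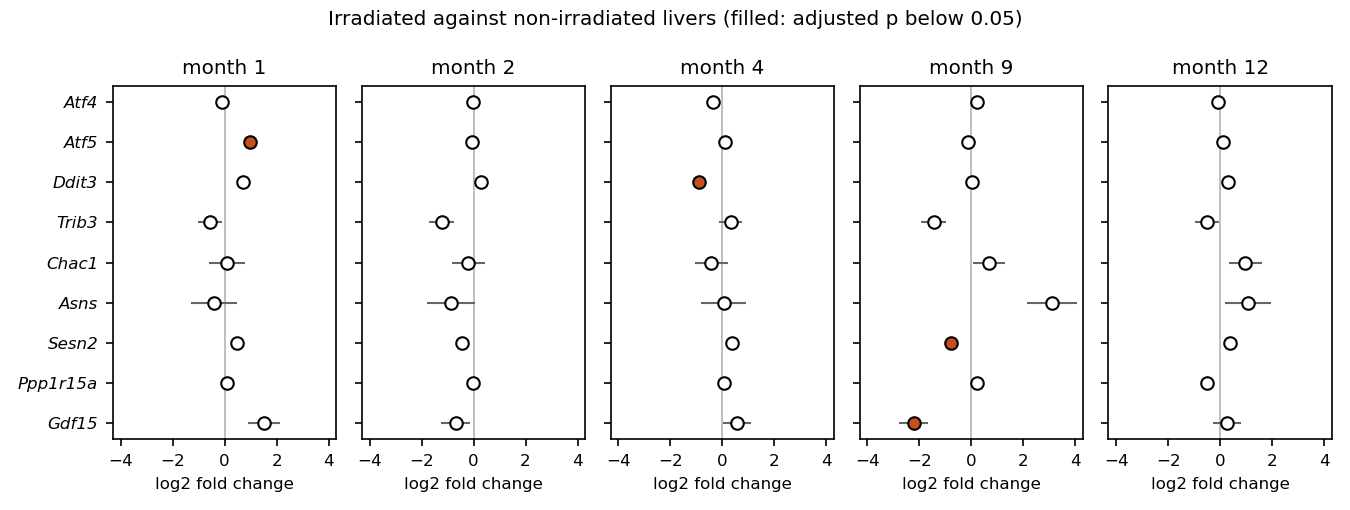
Irradiation effect on the 9 genes at each month, as log2 fold change of irradiated against non-irradiated livers with bars of 1 standard error from the edgeR fit. Filled points passed the adjusted p threshold of 0.05. Filled points are Atf5 at month 1, Ddit3 at month 4, and Sesn2 and Gdf15 at month 9; the widest bars are those of Asns.

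Atf4, the transcription factor through which eIF2 phosphorylation acts on genes, was not called between the arms at any month, with adjusted p from 0.343 to 0.987. At month 4 its level was 90.0, 86.0 and 91.3 CPM in the non-irradiated livers and 71.9, 61.0 and 76.8 CPM in the irradiated livers. The arms did not overlap there, with every irradiated liver lower, and the log2 fold change was -0.35 ± 0.20 (SE; 95% confidence interval -0.75 to 0.05; adjusted p = 0.343). At month 9 the irradiated livers read 133, 81.4 and 81.2 CPM, and the non-irradiated 78.6, 83.0 and 94.6. Replicate 1 of the irradiated group was the highest Atf4 value of the series, while the other 2 lay among the non-irradiated livers. Over the months Atf4 changed in non-irradiated livers (adjusted p = 0.00119) and in irradiated livers (adjusted p = 0.000244), from means of 47.1 ± 7.63 and 43.8 ± 6.23 CPM (SD, n = 3) at month 1 to 85.4 ± 8.29 and 98.5 ± 29.7 at month 9. Changes over months were called for 5 of the 9 genes in non-irradiated livers, against 58.3% of all genes, and for 5 in irradiated livers, against 59%. With the Gm26917 covariate 2 and 0 of the 9 were called. The Atf4 change was not called within months 1 and 2 (adjusted p = 0.299 non-irradiated, 0.398 irradiated) or within months 4, 9 and 12 (adjusted p = 0.539 and 0.172).

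Atf5, a close relative of ATF4 that is itself translated under stress and is abundant in liver, was higher in irradiated livers at month 1. It read 41.8, 32.2 and 21.5 CPM in the non-irradiated and 62.1, 59.0 and 65.9 CPM in the irradiated livers. The arms did not overlap, and each of the 3 non-irradiated values lay below all 27 other libraries of the series, whereas the irradiated values were near those of month 2. The log2 fold change was 0.97 ± 0.17 (SE; 95% confidence interval 0.62 to 1.31; adjusted p = 0.000919), or 1.95-fold. It stayed called without any 1 of the 6 libraries (adjusted p 0.000166 to 0.00582). It also did with the Gm26917 level (log2 CPM) as a covariate (adjusted p = 0.0207). At the later months the estimates ran from -0.15 to 0.09 and none was called.

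The same non-irradiated livers of month 1 also differed from their irradiated counterparts in core clock genes, which cycle over the day. Arntl averaged 2.21 ± 0.27 CPM in them and 29.9 ± 7.41 in irradiated livers, and Per3 averaged 149 ± 8.64 and 15.98 ± 1.55 (SD, n = 3). Sox9, one of 5 bile duct markers, was called higher in irradiated livers at that month, and the summed level of the 5 ranged over 15.98 to 36.3 CPM in non-irradiated and 33.2 to 65.9 in irradiated livers. Cdkn1a read 0.267, 0.636 and 0.470 CPM in non-irradiated and 4.79, 4.26 and 8.48 in irradiated livers. Gm26917 ranged over 27122 to 45770 and 50079 to 59019 CPM, and Malat1 over 5245 to 6791 and 7960 to 8891. Lymphocyte marker sums were 6.07 to 9.31 and 4.43 to 6.04 CPM. Hepatocyte marker sums, which overlapped, were 41265 to 55026 and 23762 to 46035. The part of the clock, the markers and these genes was not tested for Atf5, nor for Ddit3 and Gdf15 at that month.

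Atf5 rose over the months in non-irradiated livers, with means of 31.8 ± 10.1, 67.3 ± 5.19, 87.4 ± 11.3, 118 ± 8.20 and 100.3 ± 13.6 CPM (SD, n = 3) in the order of the months (adjusted p of a change over months = 8.53e-09). Within months 1 and 2 alone the non-irradiated change was called, and within months 4, 9 and 12 it was not (adjusted p = 0.132). Irradiated livers went from 62.4 ± 3.45 CPM at month 1 to 107 ± 9.28 at month 12 (adjusted p = 9.15e-05), with no change called within months 1 and 2 (adjusted p = 0.928) or within the later months (adjusted p = 0.663). Exons of Atf5 (chr7:44812256-44816658, GRCm38) share 82 bases, 4.11% of their length, with Il4i1 and Nup62 on the opposite strand, and the strand setting of the counting was not given in the sources used here.

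Ddit3 encodes CHOP, a transcription factor linked to cell death under lasting stress. It was lower in irradiated livers at month 4. The non-irradiated livers read 10.1, 10.1 and 14.4 CPM, and the irradiated livers 7.20, 5.10 and 6.17 CPM. The arms did not overlap, and 1 non-irradiated liver, replicate 3, stood above its 2 neighbours. The log2 fold change was -0.90 ± 0.24 (SE; 95% confidence interval -1.40 to -0.41; adjusted p = 0.0354), or 1.87-fold lower. Over the 6 fits that each left out 1 of these libraries, the log2 fold change ran from -1.04 to -0.75. Calls over all genes fell from 708 to between 91 and 386 in these fits. The Ddit3 call was lost without replicate 2 (adjusted p = 0.0514) or replicate 3 (0.182) of the non-irradiated group. The same held without replicate 1 (0.085), 2 (0.128) or 3 (0.0991) of the irradiated group. It was kept only without non-irradiated replicate 1 (0.0434). It was also lost with the replicate number as a block (adjusted p = 0.0573) and with the Gm26917 share as a covariate (adjusted p = 0.248), and Gm26917 itself was called higher in irradiated livers at month 4. Erythroid markers summed to 318 to 433 CPM in the non-irradiated and 203 to 260 in the irradiated livers of that month, with none of the 5 called, and their part in the result was not tested.

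At month 1 the direction was the other way. Ddit3 read 4.93, 5.27 and 4.98 CPM in non-irradiated and 8.34, 7.62 and 9.15 CPM in irradiated livers, without overlap, and the log2 fold change of 0.72 ± 0.25 (SE) was not called (adjusted p = 0.101). It was called when the 6 month 1 libraries were fitted alone (adjusted p = 0.0403), a fit that called 487 of all genes. At months 2, 9 and 12 the estimates were 0.31, 0.03 and 0.31 and the arms overlapped. The difference of the effect between months kept its call in 28 of 30 fits that left out 1 library, the exceptions being those without non-irradiated replicate 3 (adjusted p = 0.0507) or irradiated replicate 2 (adjusted p = 0.0619) of month 4. It was called within months 4, 9 and 12 and not within months 1 and 2 (adjusted p = 0.675). Ddit3 changed over months in non-irradiated (adjusted p = 0.00279) and irradiated livers (adjusted p = 0.0139). The irradiated change was lost without irradiated replicate 1 of month 2 (0.077) or replicate 2 of month 4 (0.0773), and was not called within months 1 and 2 (0.4) or within the later months (0.181). The non-irradiated change was called within months 1 and 2 and not within the later months (0.159). The gene (chr10:127290774-127296288) shares 68 exonic bases with Mars on the opposite strand, and 105 bases with a second Ddit3 gene model on its own strand that is not in the count table, so the count over such shared bases is uncertain.

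Of the brakes of the response, Trib3 and Ppp1r15a, neither was called at any month in the edgeR fit of all libraries. Trib3, a pseudokinase induced by ATF4 and CHOP that dampens both ATF4 and insulin signalling, gave the lowest adjusted p of the 9 for the average over months, 0.0551, with a log2 fold change of -0.69 ± 0.21 (SE). At month 2 it read 8.61, 12.1 and 9.34 CPM in non-irradiated and 3.66, 6.26 and 2.86 CPM in irradiated livers. Every irradiated liver was lower, and the estimate was -1.23 ± 0.47 (adjusted p = 0.124). At month 9 it read 9.93, 5.57 and 11.1 CPM in non-irradiated and 1.30, 4.13 and 4.18 CPM in irradiated livers. The arms again did not overlap, replicate 1 of the irradiated group being the lowest value of the series, and the estimate was -1.45 ± 0.48 (adjusted p = 0.116).

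At month 4 the order was reversed, with 8.10, 8.06 and 8.74 CPM in non-irradiated and 12.7, 9.52 and 8.86 CPM in irradiated livers, and an estimate of 0.32 ± 0.45 (adjusted p = 0.758). The dependence of the Trib3 effect on month was not called (adjusted p = 0.236). DESeq2 called Trib3 at month 9 (adjusted p = 0.0263) and on average over months (adjusted p = 0.012). The edgeR average was called without replicate 3 of the month 1 non-irradiated group (adjusted p = 0.0333), without replicate 2 of the month 9 non-irradiated group (0.0454) and without replicate 2 of the month 12 non-irradiated group (0.00652), the last being a liver with 1.49 CPM beside 8.16 and 8.20 in its neighbours. Trib3 changed over months in irradiated livers (adjusted p = 0.0192) and not in non-irradiated ones (adjusted p = 0.532). The irradiated change was lost without replicate 1 of the month 4 irradiated group (0.0827) and was not called within months 1 and 2 (0.596) or the later months (0.0726).

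Ppp1r15a, whose product GADD34 brings a phosphatase to eIF2 and ends the response, varied least of the 9 genes between libraries (2.34 times). Its group means lay between 5.56 ± 1.43 and 8.02 ± 1.63 CPM (SD, n = 3), both from month 12. There the non-irradiated livers read 7.32, 9.88 and 6.86 CPM and the irradiated livers 7.08, 5.36 and 4.23 CPM. The arms overlapped, and the log2 fold change of -0.53 ± 0.23 (SE) was not called (adjusted p = 0.32). At the other months the estimates ran from -0.03 to 0.20. No change over months was called in either arm (adjusted p = 0.441 and 0.361).

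In relative terms Asns varied most of the 9 genes between livers of 1 group, from 1.22 to 38.1 CPM in the irradiated livers of month 12. Asns, asparagine synthetase, read 4.49, 1.44 and 3.45 CPM in the non-irradiated livers of month 9 and 52.3, 5.19 and 22.6 CPM in the irradiated ones. Every irradiated liver was higher, and the irradiated values spanned a wide range with 1 of them close to the non-irradiated group. The estimate was 3.09 ± 0.96 (SE; 95% confidence interval 1.12 to 5.06) and was not called by edgeR (adjusted p = 0.102). It was called without replicate 2 of the irradiated group (0.0262) and by DESeq2 (adjusted p = 0.0117). At month 12 the irradiated livers read 12.8, 38.1 and 1.22 CPM and the non-irradiated 1.41, 19.2 and 4.61, so each arm held both high and low livers. At month 2 the irradiated livers read 5.49, 6.58 and 7.75 CPM and the non-irradiated averaged 11.9 ± 2.17 CPM (SD, n = 3), the lowest being 9.67. All 3 irradiated livers were lower there, with an estimate of -0.86 ± 0.92 (adjusted p = 0.633 in the fit of all libraries and 0.00866 in the fit of these 6 alone). The fit of these 6 called 3026 of all genes, against 860 in the fit of all libraries. No change of Asns over months was called in either arm (adjusted p = 0.257 and 0.339).

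Chac1, which breaks down glutathione and is induced by ATF4, was not called in any comparison (adjusted p 0.424 or more). At month 9 it read 5.67, 2.18 and 4.56 CPM in non-irradiated and 5.78, 5.94 and 8.15 CPM in irradiated livers. The arms did not overlap, by a narrow margin, and the estimate was 0.68 ± 0.62 (adjusted p = 0.655). In its non-irradiated groups the highest liver exceeded the lowest severalfold, as at month 4 with 9.48, 5.58 and 1.80 CPM.

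Sesn2 and Gdf15, a pair of stress outputs, were both lower in irradiated livers at month 9. Sesn2 encodes sestrin 2, which restrains mTORC1 and is activated by ATF4, NRF2 and p53. It read 12.7, 12.7 and 14.7 CPM in the non-irradiated and 5.70, 9.55 and 7.74 CPM in the irradiated livers. No irradiated liver reached the non-irradiated range, and the log2 fold change was -0.80 ± 0.21 (SE; 95% confidence interval -1.22 to -0.38; adjusted p = 0.0446), or 1.74-fold lower. Gdf15 encodes a secreted hormone that lowers food intake through a brainstem receptor. It read 10.3, 18.9 and 38.9 CPM in the non-irradiated and 0.950, 8.94 and 4.59 CPM in the irradiated livers. The arms did not overlap, although the highest irradiated and lowest non-irradiated livers were close, and the log2 fold change was -2.22 ± 0.56 (SE; 95% confidence interval -3.35 to -1.08; adjusted p = 0.0469), or 4.65-fold lower.

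Both month 9 calls sat near the threshold. That of Sesn2 was lost without replicate 1 (adjusted p = 0.0965), 2 (0.108) or 3 (0.157) of the non-irradiated group or replicate 1 (0.304) or 3 (0.118) of the irradiated group. That of Gdf15 was lost without the same libraries, in the same order at 0.0836, 0.108, 0.215, 0.257 and 0.155. Without replicate 2 of the irradiated group they had adjusted p = 0.00735 and 0.00661. With the Gm26917 covariate the adjusted p was 0.0559 for Sesn2 and 0.0587 for Gdf15, and in the fit of the 6 libraries alone it was 0.292 and 0.343, where no gene of the table was called. Without the low-count filter Gdf15 had an adjusted p of 0.102. Cell markers, the clock output gene Dbp and Cdkn1a also differed at month 9. The 5 sinusoidal endothelium markers summed to 259 to 304 CPM in non-irradiated and 201 to 242 in irradiated livers. The 5 stellate markers summed to 474 to 492 and 346 to 414. The 5 bile duct markers, which overlapped, summed to 24.9 to 36.5 and 29.7 to 132. None of these markers was called at month 9. Erythroid marker sums were 230 to 280 and 197 to 215 CPM. Dbp read 49.3, 52.2 and 33.6 CPM in non-irradiated and 10.5, 26.5 and 7.74 in irradiated livers, while Arntl and Per3 overlapped. Cdkn1a read 2.08, 2.41 and 3.64 against 8.03, 4.13 and 7.87 CPM. The part of the markers and of these genes in the result was not tested.

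At the other months neither gene was called. Gdf15 at month 1 read 1.13, 3.09 and 2.82 CPM in non-irradiated and 8.88, 5.53 and 5.20 CPM in irradiated livers. These did not overlap, in the direction opposite to month 9, and the estimate was 1.51 ± 0.62 (adjusted p = 0.203). Sesn2 at month 1 read 5.20, 10.1 and 6.96 CPM against 9.32, 10.98 and 10.2, with overlap and an estimate of 0.47 ± 0.21 (adjusted p = 0.251). At month 2 Sesn2 was lower in every irradiated liver, at 8.43, 8.29 and 5.91 against 9.26, 11.1 and 10.2 CPM (-0.43 ± 0.21, adjusted p = 0.232). The estimates of both genes were thus positive at months 1, 4 and 12 and negative at months 2 and 9. The dependence of the effect on month kept its call in all 30 fits without 1 library for Sesn2. For Gdf15 it was lost in 6 of 30, namely without non-irradiated replicate 1 of month 1 (adjusted p = 0.0538), replicate 3 of month 9 (0.0739) or replicate 3 of month 12 (0.0511), or without irradiated replicate 1 of month 1 (0.0564), replicate 1 of month 4 (0.0516) or replicate 3 of month 9 (0.0718). It was also lost for Gdf15 with the Gm26917 covariate (0.0638) and without the low-count filter (0.0703). It was called within months 4, 9 and 12 for both genes, and within months 1 and 2 for neither (adjusted p = 0.163 for Sesn2 and 0.262 for Gdf15).

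Over months, Sesn2 changed in non-irradiated (adjusted p = 0.00852) and irradiated livers (adjusted p = 0.0132). In non-irradiated livers the change was called within months 4, 9 and 12 and not within months 1 and 2 (0.159), and in irradiated livers within neither set (0.124 and 0.419). Gdf15 changed in non-irradiated livers (adjusted p = 0.00112), from 2.35 ± 1.06 CPM at month 1 to a mean of 22.7 ± 14.7 CPM at month 9, and was 9.48 ± 0.72 CPM in the last month (SD, n = 3). That change was called within neither set (0.0667 for months 1 and 2, 0.0572 for the later months). In irradiated livers no change of Gdf15 was called (adjusted p = 0.122), except without irradiated replicate 2 of month 9 (0.0344).

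The 9 genes did not move as 1 block between livers of a group. Pearson correlations of log2 CPM, taken after each group's mean was subtracted, were computed for all 36 pairs over 30 libraries. Of these 16 were positive and 20 negative, and 4 passed an adjusted p of 0.05 over the 36 pairs by both Pearson and Spearman permutation tests (100000 two-sided resamples within groups), all 4 positive. Atf4 and Ddit3 had r = 0.82 and Spearman rho = 0.756 (permutation p = 7e-05 and 6e-05, adjusted p = 0.00252 and 0.00216). Atf4 and Ppp1r15a had r = 0.698 and rho = 0.653 (permutation p = 0.0016 and 0.00259, adjusted p = 0.0144 and 0.0233). Trib3 and Sesn2 had r = 0.677 and rho = 0.665 (permutation p = 0.00118 for both, adjusted p = 0.0144 and 0.0198). Sesn2 and Gdf15 had r = 0.645 and rho = 0.636 (permutation p = 0.00126 and 0.00165, adjusted p = 0.0144 and 0.0198). After the same subtraction Atf4 had r = 0.828 with Ensa, the gene outside the 9 most like it over all libraries. How often pairs of other genes reach such values was not computed, so the 4 are not shown to be particular to this response.

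Without the 2 libraries farthest from the median of the first gene, the 4 values were 0.758, 0.63, 0.569 and 0.615. Within the 12 libraries of months 1 and 2 they were 0.559, 0.459, 0.494 and 0.69, and within the 18 of the later months 0.878, 0.831, 0.805 and 0.654. The lowest r of all pairs was that of Atf4 with its target Trib3, at -0.605, followed by Asns with Gdf15 at -0.539, and neither passed the adjusted threshold. By the same checks Atf4 with Trib3 had -0.358 without the 2 farthest libraries, 0.0567 within months 1 and 2 and -0.798 within the later months. Asns with Gdf15 had -0.473, -0.423 and -0.57. Atf5 had no r outside -0.23 to 0.18 with any other of the 9.

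**Figure D3:**
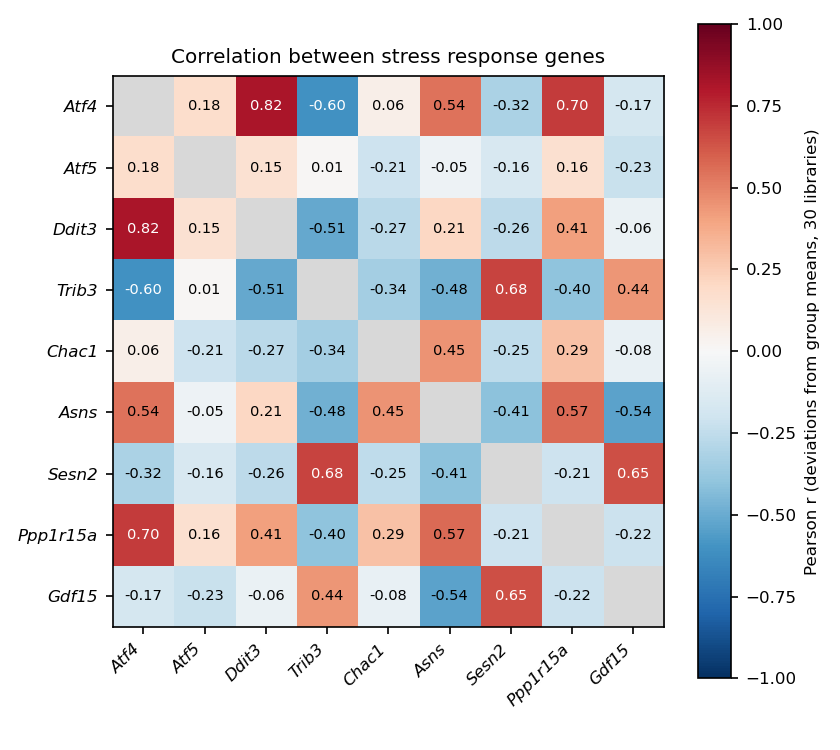
Pearson r between the 9 genes over 30 libraries, from log2 CPM after subtraction of each group's mean, with the diagonal left grey. Red cells are positive and blue cells negative. Atf4 with Ddit3 (0.82) and with Ppp1r15a (0.70) and Sesn2 with Trib3 (0.68) and with Gdf15 (0.65) passed the adjusted threshold, and Atf4 with Trib3 (-0.60) was the lowest.

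Of the genes outside the 9 with a mean of at least 1 CPM, those most like each gene over the 30 libraries were found by Pearson r of log2 CPM, as a description in which the libraries share group and composition. For Atf4 they were Ensa (r = 0.93) and Ebna1bp2 (0.919), for Atf5 Cald1 (0.944), and for Ddit3 Alg12 (0.789) and P4ha1 (0.784). For Trib3 Lims2 (0.813) is given. Those of Chac1 were Lurap1l (0.709) and Errfi1 (0.703), and those of Asns Mup14 (0.808) and Ang (0.794). Sesn2 was most like Fbxo47 (0.718) and C1qtnf7 (0.705), Ppp1r15a like Mrpl38 (0.799) and Vars (0.749), and Gdf15 like Pdk4 (0.786) and 1700025G04Rik (0.761). After subtraction of group means the highest of these were Asns with Ang (0.909) and Asns with Mup14 (0.849), and the lowest were Sesn2 with Fbxo47 (0.429) and Ddit3 with Alg12 (0.436). Mup14 belongs to a family of near-identical major urinary protein genes, so its count is uncertain.

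Among 62 other genes of the response, 61 were tested, and few were called at any month. At month 1, 4 of 61 were called, against 4.6% of all genes, Tars higher and Ppp1r15b, Mthfd1l and Slc6a9 lower. Tars, threonyl-tRNA synthetase, averaged 115 ± 9.52 CPM in irradiated and 74.6 ± 13.1 in non-irradiated livers (adjusted p = 0.00444). Ppp1r15b, the constitutive phosphatase adaptor, averaged 60.0 ± 6.86 and 97.5 ± 27.4 (adjusted p = 0.0082). At month 2, 2 were called, against 4.37% of all genes, both lower, Ppp1r15b (adjusted p = 0.035) and Eif2b1, a subunit of the eIF2 exchange factor (adjusted p = 0.0378). At month 4, 3 were called, against 3.6% of all genes, all lower, Eif2ak3, Eif2s1 and Wars. Eif2ak3 encodes PERK, the eIF2 kinase of the endoplasmic reticulum, and averaged 23.2 ± 1.72 CPM in irradiated and 41.2 ± 5.66 in non-irradiated livers (adjusted p = 0.00894). With the Gm26917 covariate Tars alone of these calls was left, at month 1, and Eif2ak3 had an adjusted p of 0.29. With 1 library of the month left out, Tars and Eif2ak3 kept their calls in 6 of 6 fits and each of the others lost its call in 2 to 6.

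At months 9 and 12 edgeR called none of the 61, with lowest adjusted p of 0.0805 and 0.269. An unadjusted p under 0.05 was found for 14, 15, 18, 16 and 4 of the 61 in the order of the months. Of all 19685 genes it was found for 3317, 4260, 3759, 3166 and 2648. At months 9 and 12 DESeq2 called 7 and 0 of the 61, against 901 and 163 of all genes. At month 9, 11 were called without replicate 2 of the irradiated group, where fits without 1 library called 0 to 1439 of all genes. At month 2 DESeq2 called 6 of the 61, and at month 4 it called 12, against 1442 and 1269 of all genes. The average over months called 1, Eif2b1, lower (adjusted p = 0.0233), against 5.26% of all genes, and it was lost with the covariate (0.153). The median log2 fold change of the 61 was -0.05, -0.25, -0.15, 0.19 and -0.05 at months 1, 2, 4, 9 and 12, and at month 1 it was 0.05 under upper-quartile scaling. The 12 tRNA synthetase genes, which ATF4 is known to raise together, had negative estimates in 12 of 12 at months 2 and 4 and positive estimates in 12 of 12 at month 9, with RLE scaling in 11, 12 and 12 and with upper-quartile scaling in 10, 11 and 11. Of all genes, 48.2, 53.8 and 50.5% had a positive estimate at these months. The shared sign was not tested. Among the 12 only Wars, at month 4, was called by edgeR at these months (adjusted p = 0.0201), and DESeq2 called 1, 4 and 2. The effect depended on month in 11 of the 61 genes, against 11% of all genes. With the Gm26917 covariate it did in 3 of the 61 and in 582 of all genes. Changes over months were called for 38 of the 61 in non-irradiated livers, against 58.3%, and 39 in irradiated livers, against 59%.

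The 19 genes of endoplasmic reticulum chaperones and of the ATF6 or XBP1 branches of the unfolded protein response are called the chaperone list here. Herpud1 and Derl3, for example, belong to those branches and are not chaperones. Genes of the list were called in large numbers at month 4. There 16 of 19 were called, all lower in irradiated livers, against 3.6% of all genes, with a median log2 fold change of -1.11, and the 9 stress response genes had a median of 0.04 with Ddit3 the 1 called. Hspa5, the main chaperone of that compartment, averaged 933 ± 171 CPM in irradiated and 2971 ± 1135 in non-irradiated livers at month 4. RLE and upper-quartile scaling and DESeq2 also called 16, but 12 were called without the low-count filter and 1, Hspa5, with the Gm26917 covariate, a gene that was itself higher in irradiated livers at that month. Without irradiated replicate 1 there were 4, without non-irradiated replicate 3 there were 5 and without irradiated replicate 2 there were 10. The erythroid marker sums given beside Ddit3 are of the same livers, and their part was not tested. At month 2, 3 of the 19 were called, against 4.37% of all genes, all lower, with Herpud1 at 426 ± 55.7 and 991 ± 111 CPM (adjusted p = 0.00407). At month 1, 2 were called, Calr (adjusted p = 0.0279) and Derl3 (adjusted p = 0.0313), both higher, against 4.6% of all genes, and neither was called with the covariate. None was called at months 9 and 12 by edgeR with TMM scaling, with lowest adjusted p of 0.0557 and 0.345. An unadjusted p under 0.05 was found for 9, 14, 17, 4 and 2 of the 19 in the order of the months. Of all 19685 genes it was found for 3317, 4260, 3759, 3166 and 2648. At months 9 and 12 DESeq2 called 2 and 0 of the 19, against 901 and 163 of all genes. RLE and upper-quartile scaling each called 1 at month 9, higher. The difference between the lists was not tested.

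**Figure D4:**
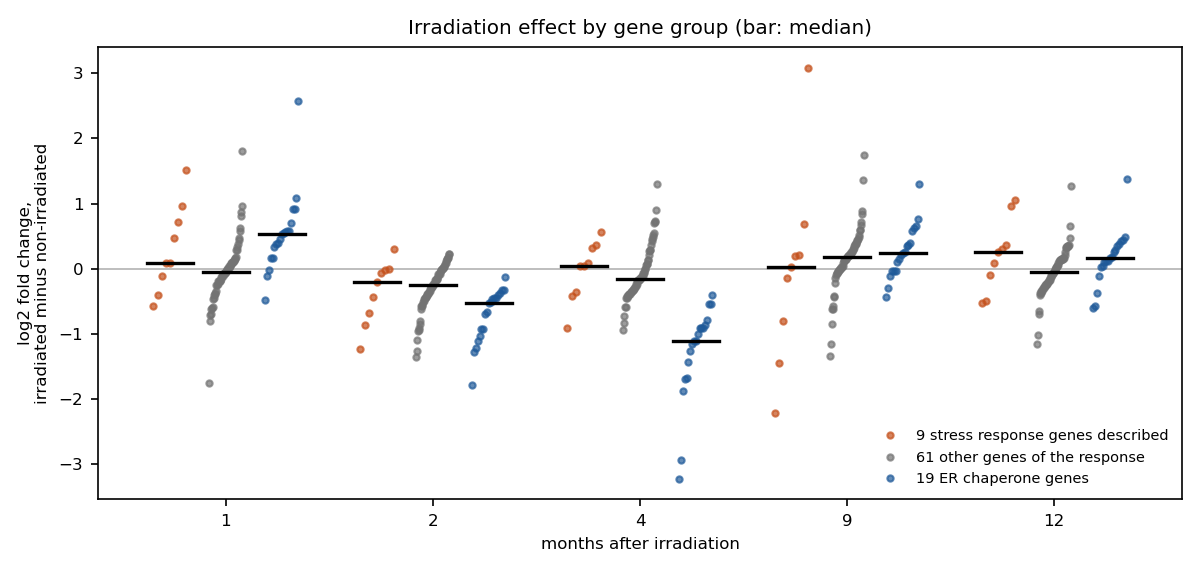
Irradiation effect by month for the 9 stress response genes (orange), 61 other genes of the response (grey) and 19 genes of the chaperone list (blue). Each point is 1 gene's log2 fold change and black bars are medians. The chaperone median falls to -1.11 at month 4 while that of the 9 genes is 0.04, and the 9 genes spread widest at month 9, from -2.22 for Gdf15 to 3.09 for Asns.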

How the data were processed

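Gene counts of 30 libraries were used as deposited. Per the series' design text and the submitters' processing notes, the authors aligned paired reads of 50 bases to GRCm38 with STAR 2.5.3a and took raw counts per gene with its GeneCounts option and the Gencode M14 annotation. The strand setting was not given in the sources used here. That text gives 23000000 to 35000000 reads per library, and the deposited counts sum to 7995248 to 20215995. Symbols, exon lengths and coordinates came from Gencode M21, and 51633 of 51826 identifiers had a symbol.

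Counts were analysed in R 4.3.3 with edgeR 4.0.16: genes were kept by filterByExpr (minimum count 10, minimum total 15), scaled by TMM, and fitted with 1 coefficient per group over all 30 libraries (robust quasi-likelihood F-test, Benjamini-Hochberg over 19685 genes, threshold 0.05). Correlations used log2 CPM (prior count 2). Some of the genes most like Atf5 and Trib3 are not reported here. Standard errors come from that fit and its moderated spread. The 95% confidence intervals used the same degrees of freedom for all genes, from the median over genes. For the most variable genes, Asns and Gdf15 among them, they are therefore narrower than the p-values imply. The fit was tested on simulated data.

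The 9 genes and the other gene lists were chosen with earlier results of these data known. All 9 were named in every comparison. Of the other genes of the response at most 4 called genes were named per comparison, and of the chaperone list 2, by smallest adjusted p. Alternatives were RLE and upper-quartile scaling, no filter and a filter of 1 CPM in 3 libraries, a Gm26917 covariate, a replicate block, DESeq2 1.42.0, fits of the 6 compared libraries or of the months on either side of the library split, and leaving out each library. For the other gene lists these alternatives were chosen after seeing the data. Replicate numbers were checked for pairing: same-numbered libraries correlated above 0.1 in 6 of 15 pairs (r from -0.384 to 0.346), including all 3 pairs at month 12. No 2 replicates held the same counts (30 pairs, lowest chi-square per gene 8.596).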

Additional observations from a re-analysis of the deposited data

Results flagged for a closer look

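The irradiation effect differed between the 5 months for 4 of the 9 genes, by an F-test of the differences between the monthly effects in edgeR. The adjusted p was 0.0142 for Atf5, 0.02 for Ddit3, 0.0112 for Sesn2 and 0.031 for Gdf15. That of Gdf15 was 0.0638 with Gm26917 as a covariate and 0.0703 without the low-count filter. Atf5 was higher in irradiated livers at month 1, where every irradiated liver lay above every non-irradiated liver, and its estimate was near 0 at the later months. Ddit3 had an estimate of 0.72 at month 1 and -0.90 at month 4. Sesn2 and Gdf15 had estimates above 0 at months 1, 4 and 12 and below 0 at months 2 and 9.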

How the results depend on the processing

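No estimate changed sign where it was called, and Atf5 at month 1 stayed called under every alternative run. Of the log2 fold changes of single genes under alternatives, 939 kept their side of the threshold, 22 lost it and 11 gained it. Of the adjusted p-values of tests between months, 739 kept it, 43 lost it and 1 gained it. RLE scaling moved no count of calls beyond 1.5 times, and upper-quartile scaling moved the median of all genes by at most 0.10. The share of all calls that were higher in irradiated livers was 32.5, 58.7, 50.7 and 69.9% at months 1, 2, 4 and 9 and 46.5% for the average. It was 34.9, 65.3, 38.3, 79 and 51.5% with RLE and 57.2, 68.9, 66, 64.8 and 75.3% with upper-quartile scaling.

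Without the low-count filter the 9 genes gave 1 call at month 9 (Sesn2), and all genes gave 393 at month 4 and 56 at month 12. The filter of 1 CPM in 3 libraries gave 493 genes at month 9. Upper-quartile scaling gave 17 genes at month 12, and 1 of the 9 genes (Atf5) for the average over months. With the Gm26917 covariate the calls over all genes were 113, 60 and 1 at months 1, 2 and 4, 147 for the average, 582 for the difference between months, 2727 for the change in non-irradiated and 125 in irradiated livers. Of the 9 genes it left 0 at months 4 and 9, 3 in the difference between months (not Gdf15), 2 in the change of non-irradiated livers (Atf5 and Ddit3) and 0 in that of irradiated livers. Gm26917 differed between groups, so the covariate and the groups cannot be told apart. The fit of the 6 compared libraries alone gave 487, 3026, 1752 and 0 genes at months 1, 2, 4 and 9, and of the 9 genes 2, 2 and 0 at months 1, 2 and 9. DESeq2 gave 1442, 1269, 901 and 163 genes at months 2, 4, 9 and 12 and 3857 for the difference between months, and of the 9 genes 4 at month 9 (Trib3, Asns, Sesn2 and Gdf15) and 1 for the average (Trib3).

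With the replicate number as a block, the pairing gave 1327, 525 and 39 genes at months 2, 9 and 12 and 1607 for the average. Of the 9 genes the block left 0 at month 4, and it changed no other call of theirs. Each library correlated best with its own number in 7 of 15 pairs. Within months 1 and 2, the difference between months was called for 195 genes and 1 of the 9, the change in non-irradiated livers for 1929 and 2 of the 9, and that in irradiated livers for 1 and 0 of the 9. Within months 4, 9 and 12 the changes were called for 3986 genes and 1 of the 9 in non-irradiated and for 576 and 0 of the 9 in irradiated livers, and the average effect for 4 genes. Except where stated beside a result, the cause of these moves was not tested.

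With 1 library left out, and the lone pair of its group assumed to vary like the other groups, the calls over all genes ranged from 249 to 1874 at month 1, 22 to 658 at month 2, 91 to 386 at month 4, 0 to 1439 at month 9 and 0 to 41 at month 12, from 450 to 2361 for the average, 1161 to 3238 for the difference between months, 10161 to 11794 for the change in non-irradiated and 10847 to 11989 in irradiated livers. Of the 9 genes the ranges were 1 to 1, 0 to 0, 0 to 1, 0 to 3 and 0 to 0 at the 5 months, 0 to 1 for the average, 3 to 4 for the difference, 5 to 5 for non-irradiated and 4 to 6 for irradiated livers. Chac1 and Gdf15 had libraries with as few as 11 counts, and Trib3 with 15, which limits what a low value of these genes can show.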

Other observations

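Single livers held extreme values of several of the 9 genes at the late months. Replicate 1 of the irradiated livers at month 9 had 133 CPM of Atf4, 52.3 of Asns, 1.30 of Trib3 and 0.950 of Gdf15, against 81.2 to 81.4, 5.19 to 22.6, 4.13 to 4.18 and 4.59 to 8.94 in the other 2 livers of its group. Replicate 2 of the non-irradiated livers at month 12 had 98.8 CPM of Atf4, 19.2 of Asns and 1.49 of Trib3, against 59.9 and 62.1, 1.41 and 4.61, and 8.16 and 8.20 in its neighbours. That liver also had 1938 CPM of Saa1, an acute phase gene, where its neighbours had 27.2 and 19.6, and its 6 Kupffer cell markers summed to 1008 CPM, the highest sum of the series. Among clock genes it had 5.96 CPM of Dbp, against 66.5 and 70.4, and 10.5 of Per3, against 49.2 and 73.6. Its Cdkn1a read 29.0 CPM, against 4.36 and 7.82. The part of these differences in its values of the 9 genes was not tested. The irradiated liver of month 9 had 54.5 CPM of Saa1, within its group's range of 14.96 to 68.9. Replicate 2 of the irradiated livers at month 12 had 4303 CPM of Saa1 and 38.1 of Asns, with 57.5 CPM of Atf4 and 4.92 of Trib3, near those of replicate 3.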
